A study of Mus musculus with 12 samples.

Results

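The guanylate-binding proteins described here are 6 mouse genes, Gbp2, Gbp3, Gbp5, Gbp6, Gbp7 and Gbp9, out of 14275 genes named in the files. They were chosen by gene name, and every line that carried one of these names was used after repeats and comparison lines marked as off were dropped. Together they had 67 distinct transcript events out of 141591 for all genes. The libraries came from total RNA of BV-2 cells, mouse microglia made immortal with viral oncogenes. There were 4 groups of 3 libraries: cells given lipopolysaccharide and nicotinamide mononucleotide together (LPS+NMN), cells given LPS alone, cells given NMN alone, and the Control cells. LPS is the outer membrane glycolipid of Gram-negative bacteria and activates microglia through Toll-like receptor signalling, and NMN is a precursor of NAD. The study's stated question was how NMN rescues BV-2 cells from ferroptosis, an iron-dependent cell death, caused by LPS. Doses, times and the number of separate cultures are not stated in the labels, so the spread between libraries of a group may be technical. All groups rest on 1 transformed line, and the labels call the cells macroglia.

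Guanylate-binding proteins are large GTPases of the dynamin superfamily that interferons, and in macrophages also LPS, switch on strongly. They coat the vacuoles and membranes of intracellular microbes, help to break them open, and so expose bacterial LPS and DNA to the caspase-11, NLRP3 and AIM2 inflammasomes. In the mouse their genes lie in a cluster on chromosome 3, which holds Gbp2, Gbp3, Gbp5 and Gbp7, and a cluster on chromosome 5, which holds Gbp6 and Gbp9. The genes of a cluster are close copies of each other, so short reads can be placed on the wrong copy. How far this touched the files was not tested.

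Each file is a catalogue of the transcripts built for 1 library, and not a table of expression. It lists where assembled transcripts of a gene begin (first exons), where they end (last exons), and where transcripts of that gene skip an exon, retain an intron or use another exon end. A gene with 1 simple transcript has 2 events, its first and its last exon. A gene with none was not listed. The catalogues held no read counts, and depth is unknown. Fewer transcripts per cell, fewer cells that make them, and too few reads to assemble them cannot be told apart here. The catalogues held 50784 to 55787 distinct events and 11911 to 12246 genes per library, and the library with the most events was Control 1. Between any pair of libraries 52.2% to 54.7% of events were shared, so no library was a copy of another. Of 12 microglia and macrophage marker genes, 12 were listed, 11 of them in every library. Of the 4 homeostatic microglia markers, Tmem119 was listed in all 12 libraries. Sall1 and Siglech were listed in no library and P2ry12 only in Control 2 and Control 3. Among markers of other brain cells, 4 of 6 astrocyte genes and 4 of 5 neuron genes were listed nowhere, while the oligodendrocyte marker Mbp was listed throughout. It averaged 3.33, 3.67 and 4.0 events in LPS+NMN, LPS and NMN and 6.67 in Control. No marker that could be tested was called in any comparison. Tested were 11 of 12 microglia and macrophage, 1 of 4 homeostatic, 2 of 6 astrocyte, 3 of 6 oligodendrocyte and 0 of 5 neuron markers. P2ry12 was listed in too few libraries to be tested.

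The upstream regions of 4 of these genes are shown because the listed transcripts of Gbp2, Gbp3 and Gbp5 differed in where they began. Gbp7, whose first exon had the same downstream end in every library, is shown beside them. They are RefSeq sequences of GRCm38.p6, covering 250 bases before and 50 bases after a transcript start, all on the plus strand of chromosome 3 and written 5′ to 3′. Gbp3 has 2 starts in RefSeq, called distal and proximal here. Gbp6 and Gbp9 had no entry in the table. Capitals mark matches to TTTCNNTTTC, the core of the interferon-stimulated response element (ISRE), searched on both strands.
Gbp2, chr3:142620413-142620712: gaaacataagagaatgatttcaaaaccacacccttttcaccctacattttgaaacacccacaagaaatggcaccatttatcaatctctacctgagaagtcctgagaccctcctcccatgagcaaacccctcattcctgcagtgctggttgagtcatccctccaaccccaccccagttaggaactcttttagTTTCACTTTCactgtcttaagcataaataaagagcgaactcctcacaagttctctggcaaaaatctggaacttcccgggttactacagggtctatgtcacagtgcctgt
Gbp3 distal, chr3:142559794-142560093: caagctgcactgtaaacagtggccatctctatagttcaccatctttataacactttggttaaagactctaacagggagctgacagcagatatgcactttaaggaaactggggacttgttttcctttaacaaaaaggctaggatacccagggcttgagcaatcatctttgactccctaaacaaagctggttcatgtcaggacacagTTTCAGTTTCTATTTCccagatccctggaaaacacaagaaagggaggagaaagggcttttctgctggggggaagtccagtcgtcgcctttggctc
Gbp3 proximal, chr3:142560106-142560405: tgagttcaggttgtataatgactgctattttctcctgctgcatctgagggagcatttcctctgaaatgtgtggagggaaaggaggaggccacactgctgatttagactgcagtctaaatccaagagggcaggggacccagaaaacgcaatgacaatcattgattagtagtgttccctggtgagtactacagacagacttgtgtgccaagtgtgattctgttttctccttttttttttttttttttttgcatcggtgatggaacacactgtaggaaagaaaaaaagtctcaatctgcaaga
Gbp5, chr3:142496684-142496983: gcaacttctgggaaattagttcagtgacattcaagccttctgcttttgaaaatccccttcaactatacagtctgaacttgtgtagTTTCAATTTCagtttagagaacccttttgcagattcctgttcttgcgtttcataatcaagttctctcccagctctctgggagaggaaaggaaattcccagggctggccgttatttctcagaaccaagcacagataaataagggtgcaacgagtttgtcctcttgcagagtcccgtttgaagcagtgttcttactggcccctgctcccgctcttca
Gbp7, chr3:142530086-142530385: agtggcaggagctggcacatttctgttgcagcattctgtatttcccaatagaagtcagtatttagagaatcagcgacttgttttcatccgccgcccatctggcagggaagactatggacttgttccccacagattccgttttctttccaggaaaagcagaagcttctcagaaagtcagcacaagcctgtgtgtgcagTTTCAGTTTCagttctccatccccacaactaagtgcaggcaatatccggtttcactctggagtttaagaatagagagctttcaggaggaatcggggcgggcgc

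The core was present in 3.44% of the 32851 promoters of the table. It lay 59 bases before the Gbp2 start, 165 bases before the Gbp5 start and 53 bases before the Gbp7 start. The Gbp3 distal region held 2 overlapping matches, 45 and 39 bases before the start, and the Gbp3 proximal region held 0. A second motif, TTCNNNGAA, the core of the interferon gamma-activated site, was found in 8.3% of all promoters. It occurred at 2 places in the Gbp5 region and 2 in the Gbp7 region, and overlapped no capitals. A match is a string of letters and no evidence that a factor was bound in these cells.

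The listed first exons of the treated cells and of the Control cells differed most plainly at Gbp2. Gbp2, which in the mouse restricts Toxoplasma and Francisella, spans chromosome 3 from 142620602 to 142638008 on the plus strand (GENCODE M21, GRCm38) and has 11 exons, with the start codon in exon 2. Its annotated exon 1 was the listed first exon in 3 of 3 LPS+NMN, 3 of 3 LPS and 3 of 3 NMN libraries, and in 0 of 3 Control libraries. In the Control libraries the transcript was listed as beginning inside the gene, at exon 5 in Control 1, exon 8 in Control 2 and exon 2 in Control 3. The last exon, exon 11, was the same in all 12 libraries. From first to last listed base Gbp2 therefore covered 17407 bases in each of the 9 treated libraries, against 7462, 4496 and 14209 bases in the Control libraries. No Control library reached the treated length, and the 3 Control libraries shared no start. In all 9 treated libraries both listed ends equalled the ends of the annotated gene. The 61 bases between the listed start and the RefSeq start are thus the distance between 2 annotated starts. The ISRE match shown above, 59 bases before the RefSeq start, lies inside the listed exon 1. Whether the assembly took these ends from the annotation was not tested.

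Gbp3, a member of the chromosome 3 cluster whose loss leaves mice open to Toxoplasma, added a second start under each treatment. It spans 142560026 to 142573209 on the plus strand and has 12 exons in its main annotated transcript, with the start codon in exon 3. The proximal first exon was listed in all 12 libraries. The distal first exon, which ends 407 bases upstream of the end of the proximal one, was listed in 3 of 3 LPS+NMN, 3 of 3 LPS and 3 of 3 NMN libraries and in 0 of 3 Control libraries. The distal starts lay between 91 bases before and 8 bases after the RefSeq distal start, next to the paired ISRE matches. The proximal starts lay 55 to 217 bases after the RefSeq proximal start, beyond the end of the proximal region shown above. That region held no match, but the bases between its end and these starts were not searched.

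The 9 treated libraries also listed, at Gbp3, a cassette exon of 195 bases before the start codon that some transcripts kept and others skipped, and no Control library did. This exon ends at the same base as the proximal first exon, which every library listed, so it is no event independent of the distal start. Skipping of exon 2 in its annotated form, which has 138 bases and is also untranslated, was listed in LPS+NMN 1, 2 and 3 and in LPS 1 and 2, but in no NMN and no Control library. NMN 2 listed the skipping of a longer form of exon 2, of 334 bases from the same start. The last exon was exon 12 in 10 libraries. LPS+NMN 2 and NMN 2 listed exon 3 as the last one, and their Gbp3 spans were 1983 and 1903 bases, against 12624 to 12797 bases in Control. These were 2 treated libraries with a span shorter than any Control library, although both listed more Gbp3 events than any Control library.

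Gbp5, which in mouse macrophages promotes inflammasome assembly, was listed in all 9 treated libraries and in 1 of 3 Control libraries. Its annotated span is 142493978 to 142522344 on the plus strand, with 11 exons. Annotated exon 1 was a listed first exon in 3 of 3 LPS+NMN libraries, 2 of 3 LPS libraries, 3 of 3 NMN libraries and 0 of 3 Control libraries. LPS 3 began at exon 2. Exon 11 closed the gene in 8 of the treated libraries, and NMN 1 stopped at exon 7. Control 2, the single Control library with an entry, held a fragment of 547 bases running between exon 5 and exon 6. Treated spans were 25203 to 25445 bases in LPS+NMN, 21493 to 25445 bases in LPS and 8772 to 25263 bases in NMN.

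Gbp7, which in the mouse has been tied to delivery of the oxidative burst machinery to phagosomes, was the member whose first and last exons varied least. It spans 142530342 to 142550149 on the plus strand with 11 exons. Exon 1 was the listed first exon in all 12 libraries, and exon 11 the last one in 11, with exon 10 in Control 1. The outer ends were less steady, and in LPS 1 exon 1 began at -320 bases from the annotated start. The spans were 16709 bases in every LPS+NMN and NMN library and 20128, 16709 and 16709 in LPS. In Control they were 15652, 19696 and 17104 bases, so Control 2 and Control 3 exceeded every treated library but LPS 1. The start of exon 2 varied as well. Both forms of exon 2, which differ by 18 bases, were listed in 0 of 3 LPS+NMN, 3 of 3 LPS, 2 of 3 NMN and 0 of 3 Control libraries. The start codon lies 6 bases after the later of both starts, so the choice alters the leader of the mRNA and leaves the annotated protein start in place. LPS 1 alone also listed intron 4, of 600 bases, as retained. This intron was entered under 2 event types. The 2 forms of exon 2 also count as 2 events, although they were always listed together.

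On chromosome 5, Gbp9 resembled Gbp5. Gbp9 is a guanylate-binding protein that gathers at Toxoplasma vacuoles in the mouse, and it spans 105077630 to 105139539 on the minus strand with 11 exons. It was listed in all 9 treated libraries and in Control 1 alone among the Control libraries. The far upstream exon 1 was a listed first exon in 2 of 3 LPS+NMN, 3 of 3 LPS, 2 of 3 NMN and 0 of 3 Control libraries. LPS+NMN 3 began at exon 2 and NMN 1 at exon 3. The Control 1 fragment covered 1195 bases, between exon 8 and exon 9 of the main transcript, and exon 8 is also exon 1 of a shorter annotated transcript of Gbp9. The treated spans were 27717 to 31829 bases in LPS+NMN, 31756 to 33707 in LPS and 20648 to 33413 in NMN. Retained introns appeared only in NMN 2 and NMN 3.

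Gbp6, also found at Toxoplasma vacuoles in the mouse, had the most varied ends. It spans 105270702 to 105293698 on the minus strand in GENCODE M21. An unannotated first exon ending 287 bases before the annotated start, yet inside the longer RefSeq gene that reaches 105295871, was listed in 3 of 3 LPS+NMN, 3 of 3 LPS, 1 of 3 NMN and 0 of 3 Control libraries. Annotated exon 1 was listed in LPS 3, NMN 1, NMN 3 and Control 1. Control 2 and Control 3 began inside the gene, at exon 8 and exon 7.

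At its other end Gbp6 ran into its neighbour. In 0 of 3 LPS+NMN, 3 of 3 LPS, 2 of 3 NMN and 0 of 3 Control libraries a transcript named Gbp6 ended inside Gbp10, a close copy that begins 31168 bases beyond Gbp6. The Gbp6 spans were 23372, 23343 and 23565 bases in LPS+NMN and 72174, 72328 and 69721 bases in LPS. They were 73296, 23357 and 105606 bases in NMN, and 21470, 3645 and 4939 bases in Control. The LPS+NMN spans were all below the LPS spans and all above the Control spans, while NMN 2 lay within the LPS+NMN spans and NMN 1 and NMN 3 lay above every LPS span. In NMN 3 the span also took in an exon of Gbp11. Gbp10 itself had 2 events in each LPS+NMN and each LPS library and in NMN 2, and was listed in no Control library. Whether single RNA molecules join both genes, or reads of the copies were merged in assembly, was not tested.

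**Figure D1:**
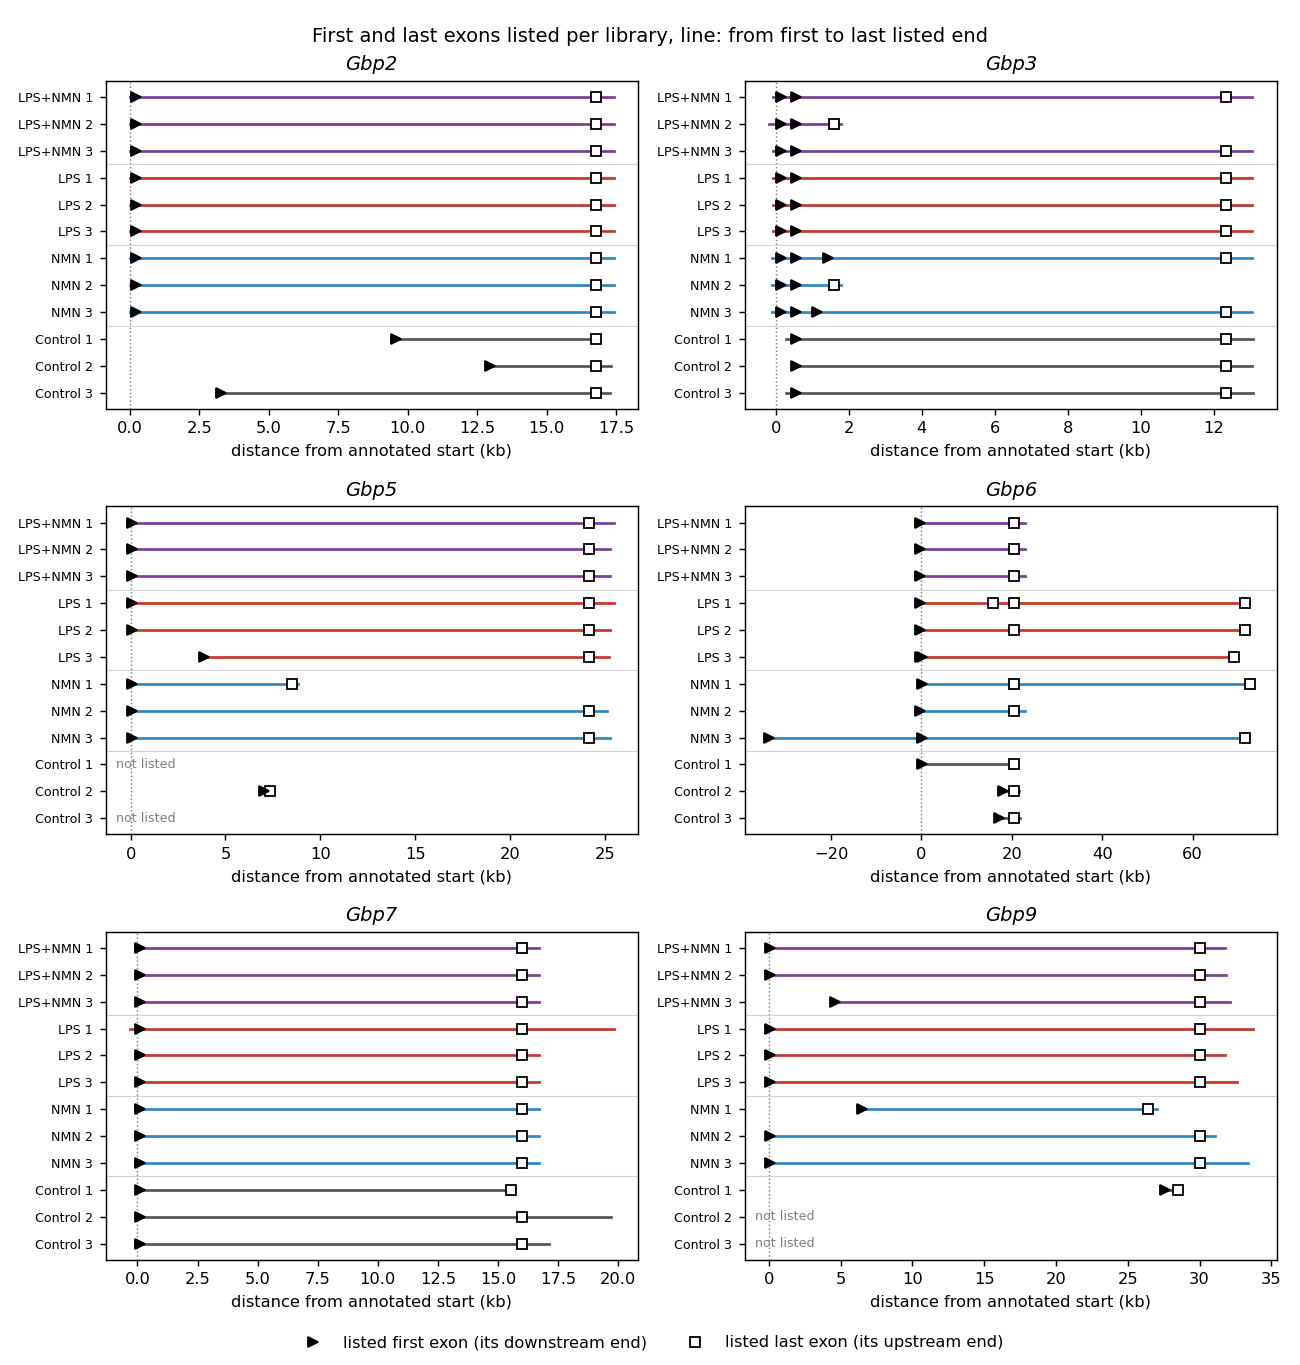
First exons (triangles, drawn at their downstream end) and last exons (squares, drawn at their upstream end) of each gene in each library, as distance from the annotated start in kb. Gbp2 starts at the left edge in the 9 treated libraries and further in for the 3 Control libraries, Gbp5 and Gbp9 are missing from 2 Control libraries each, and the Gbp6 lines reach about 72 kb in LPS 1 and LPS 2 and end near 23 kb in LPS+NMN.

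Taken by first exon, 4 of the 16 member first exons seen in LPS or Control libraries were in every LPS and no Control library, those of Gbp2, Gbp3, Gbp6 and Gbp9. Over all genes 0.665% of first exons met that rule. In LPS+NMN against Control it was 4 of 16, for Gbp2, Gbp3, Gbp5 and Gbp6, beside 0.685% of all. For NMN against Control it was 3 of 19, for Gbp2, Gbp3 and Gbp5, beside 0.573% of all. These comparisons share their Control libraries. The first exons of Gbp2 and Gbp3 were in all 9 treated libraries and in no Control library, as were 0.114% of first exons of all genes. The Gbp3 cassette exon met the same rule, as did 0.0602% of all splicing events. Listed spans were longer in every LPS than every Control library for Gbp2, Gbp3 and Gbp6 out of the 4 members listed in all those libraries, beside 2.78% of all genes. In LPS+NMN this held for Gbp2 and Gbp6, beside 2.73%, and in NMN for the same pair, beside 2.49%.

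Over all genes, starts at an annotated exon 1 were as frequent in the Control libraries as in the others. Among 9695 genes that could be placed on the annotation, 87.0% to 87.9% of those listed had an annotated exon 1 in each library, with 87.3%, 87.9% and 87.8% in the Control libraries. Exon 1 of any annotated transcript of a gene counted here. Of the 6 members, 5, 5 and 4 had one in LPS+NMN, and 5, 5 and 5 in LPS. In NMN it was 5, 5 and 6 of 6, and in Control 4 of 5, 2 of 5 and 2 of 4 listed members. These Control counts include Gbp3 in every library, through its proximal first exon, and Gbp9 in Control 1, through exon 8. The main exon 1 of both genes was listed in no Control library.

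**Figure D2:**
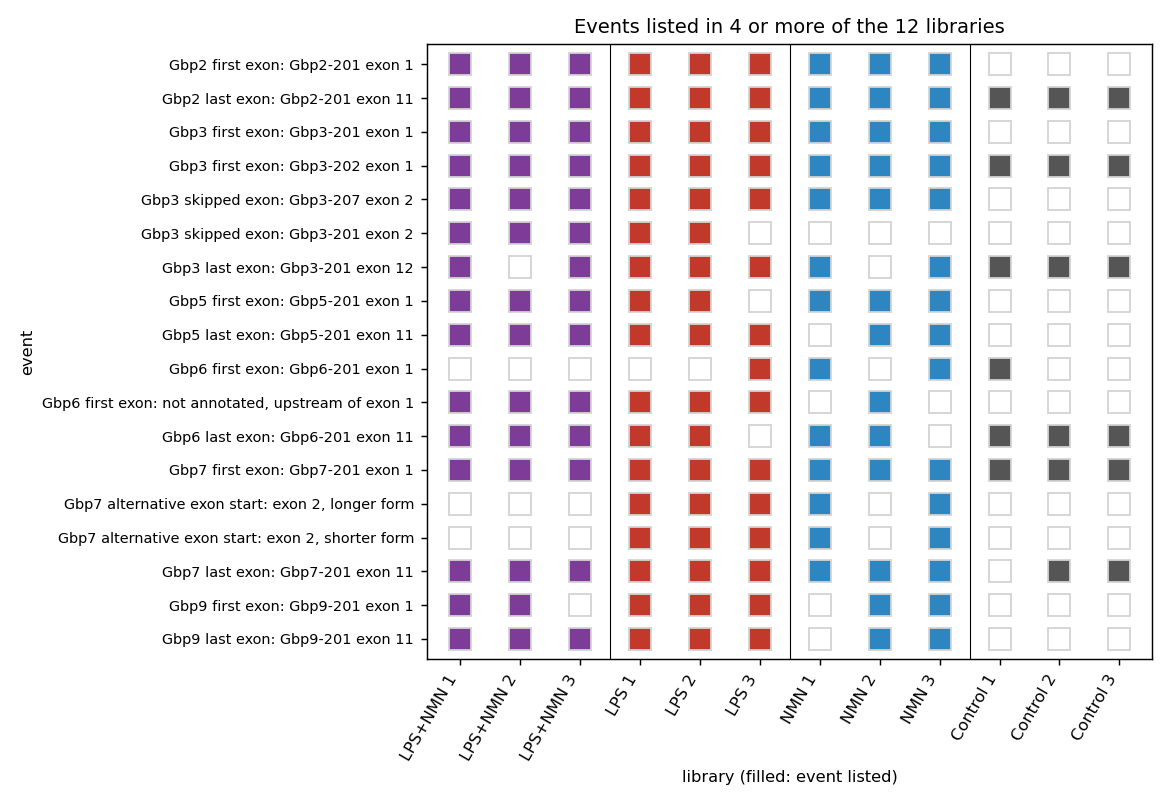
The 18 events of these genes that were listed in 4 or more libraries, with a filled square where a library listed the event and an open one where it did not. There were 11 events with no filled square in Control, 3 of them filled in all 9 treated libraries, and the exon 2 forms of Gbp7 are filled in LPS and in 2 NMN libraries but open in LPS+NMN and Control.

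Most of the other events were seen once. Of the 67 distinct events 35 were in a single library, which is 52.2%, beside 44.0% for all genes. Only 3 were in all 12 libraries, namely the Gbp2 last exon, the Gbp3 proximal first exon and the Gbp7 first exon. There were 50 of 67 events in treated libraries alone, beside 43.3% of the events of all genes, and 10 in Control libraries alone, beside 12.2%. The 30 splicing events were listed in no Control library, which held for 45.4% of the splicing events of all genes. Of the 10 first exons found in a Control library, 3 also occurred in a treated one.

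Summed over the 6 genes, the number of events was 18, 21 and 15 in LPS+NMN, 34, 21 and 18 in LPS, 18, 20 and 22 in NMN, and 10, 10 and 8 in Control. Every treated library was above every Control library. The means were 18.0 ± 3.0, 24.3 ± 8.5, 20.0 ± 2.0 and 9.33 ± 1.15 (SD, n = 3 each). Over all genes, Control 1 had the most events of any library with 55787, and Control 3, which had the lowest member sum, had 51039 events and the fewest listed genes, 11911. Member events made up 0.0279% to 0.0645% of all events in the treated libraries and 0.0157% to 0.0188% in the Control libraries. The part of catalogue size in the member sums themselves was not tested.

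LPS against Control asks what the bacterial stimulus did to the transcripts of these genes. Gbp6 listed 6, 4 and 4 events in LPS and 2, 2 and 2 in Control. Gbp7 listed the same numbers, 6, 4 and 4 in LPS and 2, 2 and 2 in Control. Gbp3 listed 12, 5 and 4 events in LPS and 2, 2 and 2 in Control. For these 3 genes the LPS libraries lay above the Control libraries without overlap, which held for 2.15% of all genes. Gbp2 had 5, 4 and 2 events in LPS and 2, 2 and 2 in Control, with 1 LPS library at the Control value. Gbp5 had 3, 2 and 2 in LPS and 0, 2 and 0 in Control, and Gbp9 had 2, 2 and 2 in LPS and 2, 0 and 0 in Control. Both overlapped Control through the single Control library that listed the gene.

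No member passed the test in LPS against Control. On log2(events + 1), limma gave Gbp6 a difference of 0.90 ± 0.17 (SE) with a Benjamini-Hochberg adjusted p of 0.051 over 11671 genes, the closest of the 6. Gbp7 had the same difference of 0.90 with an SE of 0.21 and a limma adjusted p of 0.16. Gbp3 differed by 1.28 ± 0.34 (limma adjusted p = 0.21), Gbp5 by 1.20 ± 0.37 (0.336), Gbp9 by 1.06 ± 0.36 (0.381) and Gbp2 by 0.58 ± 0.32 (0.7). The 6 differences were all positive, with a median of 0.98, beside a median of 0 for all genes. Over all genes 0.3% were called, 30 with more events in LPS and 5 with fewer, and 872 genes, 5 members among them, had an unadjusted limma p under 0.05. The Gbp6 call turned on small choices: with a pseudocount of 0.5 it was called at a limma adjusted p of 0.0499, and without NMN 2 at 0.034, when Gbp7 was called too at 0.0378. Gbp5 was called without Control 2 (limma adjusted p = 0.0115) and Gbp9 without Control 1 (0.0101), the lone Control libraries that listed them.

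NMN against Control asks what NMN did in cells without LPS. Gbp3 had 5, 9 and 5 events in NMN and 2, 2 and 2 in Control, the single member of 6 without overlap, beside 1.85% of all genes. Gbp7 had 4, 2 and 4 in NMN and 2, 2 and 2 in Control. Gbp6 had 3, 2 and 3 in NMN and Gbp2 had 2, 2 and 5, against 2 in each Control library for both. In all 3 genes at least 1 NMN library stood at the Control value. Gbp5 had 2, 2 and 2 in NMN and 0, 2 and 0 in Control. Gbp9, the gene with more events in NMN than in LPS, had 2, 3 and 3 in NMN and 2, 0 and 0 in Control. The largest limma differences were 1.33 for Gbp9 (adjusted p = 0.334), 1.25 for Gbp3 (0.334) and 1.06 for Gbp5 (0.499), and those of the other 3 were 0.28 to 0.49. None of the 6 was called, beside 0.231% of all genes, and 4 had an unadjusted limma p under 0.05, as did 817 of all genes. Without Control 2 Gbp5 was called at a limma adjusted p of 0.0134, and without Control 1 Gbp9 was called at 0.0118.

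LPS+NMN against Control gave another pattern. Gbp3 had 8, 9 and 5 events in LPS+NMN and 2, 2 and 2 in Control, again the only member without overlap, beside 2.2% of all genes. Its limma difference of 1.44 had an adjusted p of 0.194. Gbp6 and Gbp7 had exactly 2 events in every LPS+NMN and every Control library, a difference of 0. Gbp2 had 2, 4 and 2 in LPS+NMN and 2, 2 and 2 in Control. Gbp5 and Gbp9 had 2 events in every LPS+NMN library, against 0, 2 and 0 for Gbp5 and 2, 0 and 0 for Gbp9 in Control. No member was called, beside 0.334% of all genes, and 3 had an unadjusted limma p under 0.05, as did 870 of all genes. Gbp5 without Control 2 (limma adjusted p = 0.0138), Gbp9 without Control 1 (0.0114) and Gbp3 without LPS 1 (0.0376) passed.

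**Figure D3:**
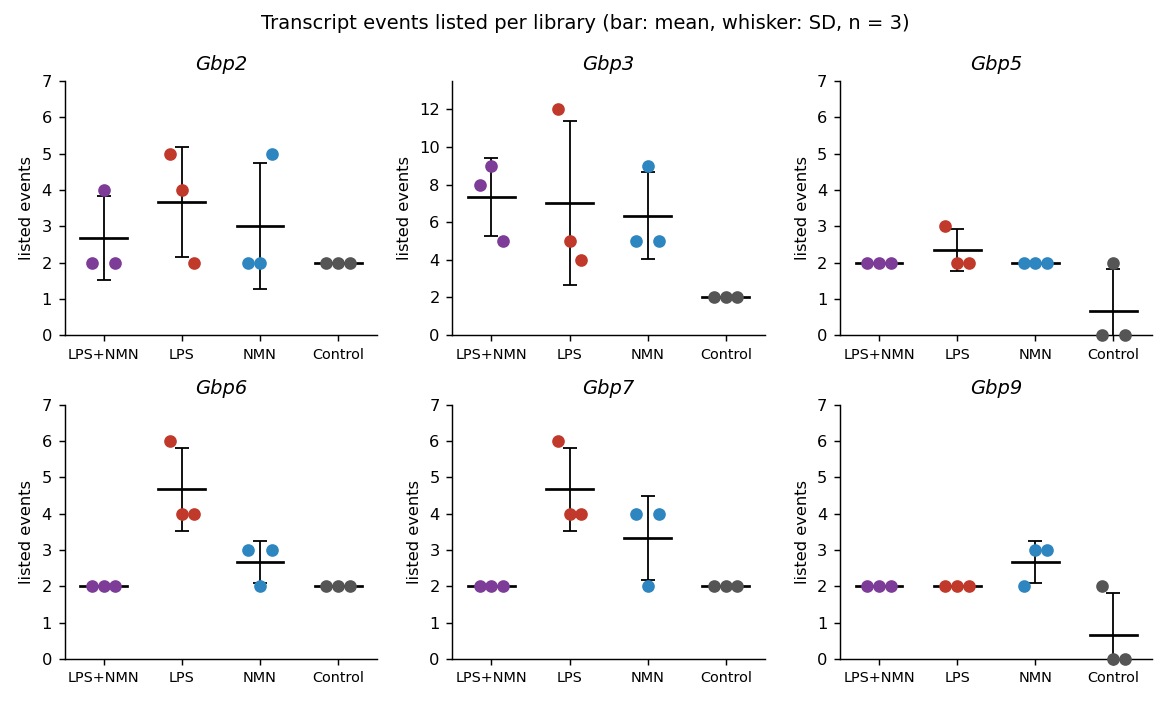
Number of distinct transcript events listed per library for each gene (points), with the mean as a bar and the SD as a whisker (n = 3 per group). Gbp3 lies at 4 to 12 in the treated libraries and at 2 in Control, while Gbp6 and Gbp7 stand at 4 to 6 in LPS and at 2 in every LPS+NMN and Control library.

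LPS+NMN against LPS is the comparison closest to the study's stated question. Gbp6 had 2, 2 and 2 events in LPS+NMN and 6, 4 and 4 in LPS, and Gbp7 had 2, 2 and 2 in LPS+NMN and 6, 4 and 4 in LPS. These 2 of the 6 members lay below LPS without overlap, beside 1.22% of all genes. The events missing from LPS+NMN were, for Gbp7, both forms of exon 2 and the retained intron. The 2 forms were always listed together and the intron was entered under 2 event types, so these Gbp7 events are not independent. For Gbp6, the missing events were the ends in Gbp10, an early end at exon 6, annotated exon 1 and the skipped exons 2 and 3. Gbp2 had 2, 4 and 2 events in LPS+NMN and 5, 4 and 2 in LPS. Gbp3 had 8, 9 and 5 in LPS+NMN and 12, 5 and 4 in LPS, so it overlapped. Gbp5 differed by 1 event in 1 LPS library and Gbp9 did not differ at all.

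The differences of Gbp6 and Gbp7 were both -0.90 on log2(events + 1), with limma adjusted p of 0.367 and 0.553. No gene at all was called in LPS+NMN against LPS (0.0% of 11671 genes), with 521 genes, 2 of them members, at an unadjusted limma p under 0.05. Without the trend and robust settings limma called 6 genes, none a member. The other differences were -0.33 for Gbp2, 0.16 for Gbp3, -0.14 for Gbp5 and 0 for Gbp9. The Gbp3 difference ranged from -0.12 to 0.57 when single libraries were left out. LPS+NMN against NMN likewise gave 0.0% of genes called, 531 at an unadjusted limma p under 0.05 and 6 without trend and robust settings. Member differences there were -0.49 for Gbp7, -0.28 for Gbp6 and Gbp9, -0.09 for Gbp2, 0 for Gbp5 and 0.19 for Gbp3.

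The interaction tests whether the difference NMN makes is another one in cells given LPS. It was negative for all 6 members: -1.39 for Gbp7 (limma adjusted p = 0.155), -1.18 for Gbp6 (0.119), -1.33 for Gbp9 (0.708), -1.20 for Gbp5 (0.819), -1.09 for Gbp3 (0.831) and -0.67 for Gbp2 (0.896). Their median was -1.19, beside 0 for all genes. No member was called, beside 0.0428% of all genes, and 5 of the 6 had an unadjusted limma p under 0.05, as did 671 of all genes. For Gbp3, Gbp5 and Gbp9 the Control libraries were the low group, and LPS+NMN, LPS and NMN overlapped.

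The genes around and behind this family were read from lists chosen for their roles. Of the other guanylate-binding proteins, Gbp8 was listed in 10 libraries, Gbp2b in LPS+NMN 2 and NMN 2, Gbp11 in NMN 1 and Gbp4 in none. Gbp10 had a limma difference of 1.59 in LPS against Control (adjusted p = 0.18) and the same 1.59 in LPS+NMN against Control (0.206). In LPS against Control the dynamin-like antiviral GTPase Mx2 was the 1 list gene called, with 8, 6 and 6 events in LPS and 2, 3 and 2 in Control (1.20 ± 0.18, limma adjusted p = 0.0107). It was 1 of 5 tested in the list of giant interferon-inducible GTPases and dynamin relatives, whose median was 0.38. The immunity-related GTPases, which act beside guanylate-binding proteins on vacuoles, had 0 of 7 called and a median of 0. Irgm1, their regulator, averaged 5.0 ± 2.0 events in LPS and 5.0 ± 2.0 in Control (SD, n = 3 each). Interferon receptors and signalling had 0 of 13 called and a median of 0.04. Inflammasome and pyroptosis partners had 0 of 11 called, with a median of 0.08. Counts of 0 also stood for ubiquitin-like conjugation (8 tested), ubiquitin ligases and adaptors (6), prenylation (4) and the neighbours of the chromosome 3 cluster (5). In the other 5 comparisons no list gene was called.

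The genes whose event numbers followed the member sum most closely over the 12 libraries were Trim30d (Pearson r = 0.877), Apol9b (0.875), Zfp811 (0.872), Prdm2 (0.865) and Herpud1 (0.864), of 9686 compared. These values describe small whole numbers from 12 libraries that share their groups. Apol9b had 6, 6 and 5 events in LPS+NMN, 6, 4 and 4 in LPS, 4, 6 and 4 in NMN and was listed in no Control library. It was also, with H2-Q5, the closest to Gbp3 (r = 0.904 for both). Ifih1, the sensor of long double-stranded RNA, and Rasip1 were closest to Gbp6 (0.88 for both). Ifih1 had 2 events in every LPS+NMN, NMN and Control library and 3 in every LPS library. Closest to Gbp7 were Igsf11 (0.855) and Pde4c (0.848), to Gbp2 Ttc33 (0.929) and Cd82 (0.886), to Gbp5 Vps4b (0.983) and Pnpla8 (0.941), and to Gbp9 Nup98 and Foxo1 (0.972 for both).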

How the data were processed

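RNA sequencing libraries of BV-2 cells were grouped by their titles, 3 per group. The deposited files list transcript events with positions (type, gene, chromosome, start, end, exon pattern, strand, per the file headers), with no counts or levels. The submitters' processing notes name HOMER, MACS2 2.1.0, BWA 0.7.12 and the build GRCm38. Which program wrote the event lists was not given in the sources used here.

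Lines marked off and repeats were dropped. First and last exons were matched by their inner end, other events by both ends. Distinct events per gene and library were tested as log2(events + 1) with limma 3.58.1 in R 4.3.3 (trend and robust empirical Bayes, 4 groups, 8 residual degrees of freedom), with Benjamini-Hochberg adjustment over all genes tested and a threshold of 0.05. Genes needed 1 event in 3 libraries and unequal numbers. This left out 1500 and 1104 genes and kept 11671, with all 6 members among them. The fit was tested on simulated data.

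Deposited positions lie on an unnamed assembly, and no conversion between assemblies was run. Exon numbers and distances to annotated or RefSeq starts come from 1 constant offset per gene to GENCODE M21 (GRCm38). The offset was the same for all members on a chromosome: GENCODE lay 294239 bases higher on chromosome 3 and 147866 lower on chromosome 5. It matched 52 of 64 inner exon ends (81.2%). The deposited positions of these genes thus differ from GRCm38, the build named in the processing notes.

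Members, lists and tests were chosen with earlier results of these data known. Members were named whatever their values. List genes were named when called or among the 4 with the most events. Genes of like pattern needed a mean of 2 events. The labels do not say whether libraries with the same replicate number are paired, and the main fit did not treat them as paired.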

Additional observations from a re-analysis of the deposited data

How the results depend on the processing

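Over 22 other settings, 12 of them leaving out 1 library, 713 of 728 values of the 36 member differences neither changed sign nor crossed the threshold, although 8 of them came to 0 and 4 left a difference of 0. A further 10 passed it newly, 0 lost it and 5 changed sign. With a pseudocount of 0.5, 1 member was called in LPS against Control and 3 genes in LPS+NMN against LPS. A fit with the log2 number of events in the library as covariate called 39 genes and 0 members in LPS against Control. Genes with at least 5 events gave 3 calls in LPS against Control, 3 in NMN against Control, 10 in LPS+NMN against Control and 1 in the interaction. Fits on the compared groups only gave 1, 1 and 3 calls in the comparisons of LPS, NMN and LPS+NMN with Control. Splicing events alone gave 3, 2 and 8 there, 1 in LPS+NMN against LPS and 0 in the interaction. Without trend and robust settings calls were 6 in LPS+NMN against LPS, 6 in LPS+NMN against NMN and 39 in the interaction. Leaving out 1 library gave 32 to 55 genes called in LPS against Control (55 without Control 1), 27 to 44 in NMN against Control (43 or 44 without any one Control library), 32 to 55 in LPS+NMN against Control and 0 to 11 in LPS+NMN against LPS (11 without LPS 1, otherwise 0), and 0 to 2, 0 to 1 and 0 to 1 members in the comparisons with Control. Gbp3 in LPS+NMN against LPS ranged from -0.12 to 0.57 and Gbp2 in LPS+NMN against NMN from -0.33 to 0.25. First and last exons alone turned Gbp3 in LPS+NMN against NMN to -0.21. The cause of these changes was not tested.

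Same-numbered libraries of different groups did not deviate together (r = -0.027 to 0.0206 over 18 pairs, and -0.0154 to 0.0242 over 36 pairs of other numbers). A replicate block gave 33, 26, 32, 0, 0 and 4 genes called in the order LPS, NMN and LPS+NMN against Control, LPS+NMN against LPS, LPS+NMN against NMN and interaction, and 0 members in each. Event numbers of 0 to 12 are coarse, and most member differences rest on 2 or 3 events. Depth is unknown, so absence from a catalogue is no evidence that a transcript was absent.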
